A study of Homo sapiens with 2 samples.

Results

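Genes of glycolysis, of the tricarboxylic acid (TCA) cycle and of the hypoxia response were described in ALDEFLUOR-sorted ovarian cancer cells. The members were the 54 genes of a list drawn up for these pathways, and every gene probe whose gene name in the array files equaled a listed name was taken. They comprised 23 genes of glucose and lactate transport and glycolysis, 19 genes of pyruvate dehydrogenase and the TCA cycle, and 12 hypoxia genes. All 54 had a probe, 65 probes in all, among 27193 gene names and 34127 probes on the array. Of these, 49 genes were measured, among 13702 measured on the whole array. A gene was called measured when a probe was well above background, by the array software's own flag, in either population on both arrays.

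RMG1, an established cell line of ovarian clear cell adenocarcinoma grown in DMEM/F12 with fetal bovine serum, was sorted by the ALDEFLUOR assay, a fluorescent readout of aldehyde dehydrogenase (ALDH) activity. RNA of ALDEFLUOR-positive (ALDH+) and of ALDEFLUOR-negative (ALDH-) cells was hybridized together on 2-color Agilent arrays with probes of 60 bases, with ALDH+ cells in Cy5 on array 1 and in Cy3 on array 2. Both arrays were taken to carry the same pair of extracts from 1 sort, because their titles differ only in the dye order. The methods do not give the number of sorts. The arrays were therefore counted as 1 replicate and no test was possible. On that reading the standard deviation (SD) of the arrays is technical only. The methods give AMOC2, a serous adenocarcinoma line, as the origin of the RNA. The labels and the results give RMG1, the name used here. In sorted pools such as these, fewer cells that express a gene and less of its RNA per cell cannot be told apart.

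In glycolysis, glucose enters through GLUT transporters, is phosphorylated by hexokinases and is broken down in the cytosol to pyruvate, which lactate dehydrogenase can turn into lactate for export. Pyruvate dehydrogenase instead feeds pyruvate into the mitochondrial TCA cycle, and pyruvate dehydrogenase kinases switch that entry off. When oxygen is low, prolyl hydroxylases no longer mark the HIF transcription factors for destruction, and HIF then induces many glycolytic genes together with genes of vessel growth, pH control and mitophagy.

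Each array had 43118 spots of gene probes, none of them saturated. The log2 ratio of ALDH+ to ALDH- cells had a median of -0.0031 over the 13702 genes, with an interquartile range of 0.333. Pearson's r between the arrays was 0.69 over all genes and 0.71 over the 49 members (genes are no independent replicates). All 7 epithelial markers were measured (median log2 ratio 0.021). Of the clear cell carcinoma markers, NAPSA had a log2 ratio of -0.16 and PAX8 one of -0.74, and ARID1A was not measured. Of 7 leukocyte markers 3 were measured, of 3 endothelial markers 1, and none of 6 fibroblast or 3 erythroid markers. The summed signal of the leukocyte probes was 1017 and 1112 in ALDH+ cells and 1032 and 959 in ALDH- cells. CD14 had a log2 ratio of 0.45, PTPRC of 0.035 and CD68 of -0.079, and their part in the members' values was not tested.

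**Figure D1:**
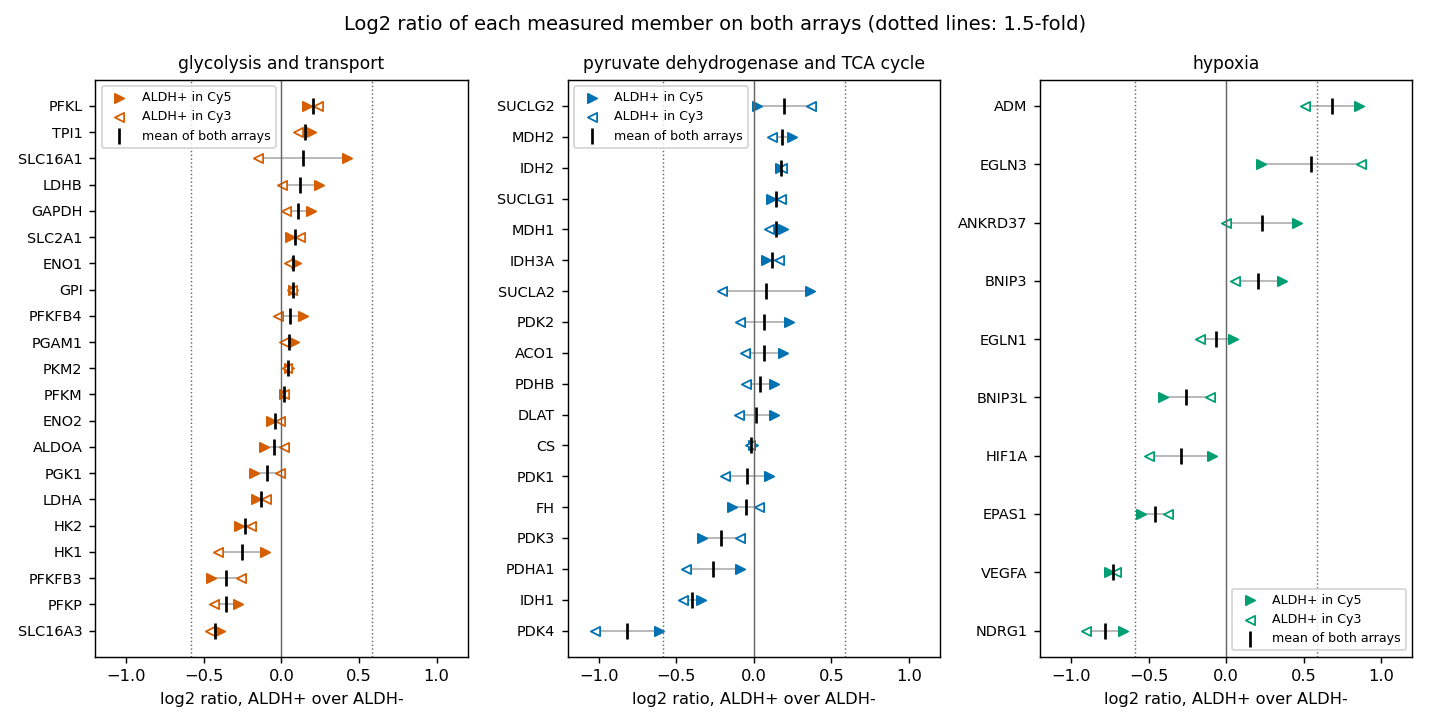
Log2 ratio of ALDH+ to ALDH- cells for the 49 measured members, in the 3 groups. Filled triangles are array 1 (ALDH+ in Cy5), open triangles array 2 (ALDH+ in Cy3), black ticks their mean, and dotted lines 1.5-fold. The glycolysis members lie between -0.43 and 0.20, and the hypoxia members spread from -0.78 to 0.68.

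After loess normalization within each array, the glycolysis genes were close to equal in ALDH+ and ALDH- cells. The 21 measured genes of transport and glycolysis had a median log2 ratio of 0.041, and 15 of them (71.4%) lay within 0.2 of 0, against 58.7% of all genes measured. Their means ran from -0.43 to 0.20, 12 above 0 and 9 below, and none passed 1.5-fold in either direction. With each array centred on the median of its gene spots in place of loess, the glycolysis median was 0.28. In the TCA group the 18 measured genes had a median of 0.053, and 14 lay within 0.2 of 0. The hypoxia genes were spread more widely. Their 10 measured members had a median of -0.16 and an interquartile range of 0.643, against 0.223 for glycolysis, 0.187 for the TCA group and 0.333 for all genes, and 1 of 10 lay within 0.2 of 0.

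Over the 3 groups, 1 of 49 members, ADM, passed 1.5-fold toward ALDH+ cells, beside 206 of 13702 genes (1.5%). Another 3 members were more than 1.5-fold lower, NDRG1, PDK4 and VEGFA, beside 630 genes (4.6%). The 3 lower members, 6.12% of the 49, were past 1.5-fold on each array, beside 449 of the 13702 genes. ADM was past it on array 1 only, and 133 of all genes were more than 1.5-fold higher on each array. Of all genes, 0.212% were more than 2-fold higher and 0.708% more than 2-fold lower, and no member was past 2-fold either way. These counts come from means over the arrays, without a test.

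**Figure D2:**
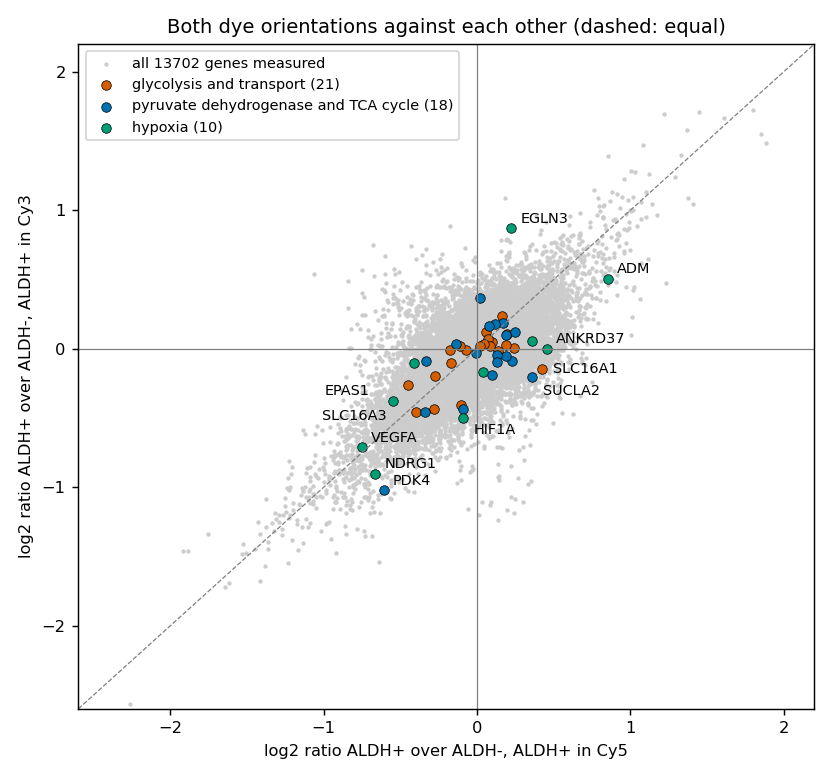
Log2 ratio of ALDH+ to ALDH- cells on array 1 (horizontal axis, ALDH+ in Cy5) against array 2 (vertical axis, ALDH+ in Cy3). Grey points are all 13702 genes measured, and colored points are the 49 members. VEGFA, NDRG1 and PDK4 lie low on both arrays. EGLN3, SLC16A1 and SUCLA2 lie farthest of the members from the dashed line of equal ratios.

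Transport of glucose and lactate was measured by 3 of its 4 genes. SLC2A1, which encodes GLUT1, had log2 ratios of 0.057 and 0.12. SLC2A3 (GLUT3) was not above background with either of its 2 probes. SLC16A3 encodes MCT4, the exporter of lactate from glycolytic cells, and had the lowest ratio of the glycolysis members. Its normalized signal was 16115 and 15016 in ALDH+ cells and 21202.5 and 20663 in ALDH- cells. The log2 ratios were -0.40 and -0.46, a mean of -0.43 ± 0.046 (SD of 2 arrays), 1.35-fold lower in ALDH+ cells. With each array centred on the median of its gene spots in place of loess, its mean log2 ratio was -0.066. SLC16A1 (MCT1), which carries lactate and pyruvate in either direction, had log2 ratios of 0.42 and -0.15. Its sign differed between the arrays, and the mean of 0.14 is within the technical SD of 0.40.

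Among the enzymes of the first steps, both hexokinases were lower in ALDH+ cells on both arrays, with mean log2 ratios of -0.26 for HK1 and -0.24 for HK2. The 3 phosphofructokinase-1 genes, which encode the isoforms of the committed step, did not have like ratios. PFKL, the liver type, had the highest mean of the glycolysis members after loess, by brightest probe. Its log2 ratios were 0.16 and 0.24 (mean 0.20 ± 0.054). With median centring it was at 0.31, below LDHB at 0.56, GAPDH at 0.54 and TPI1 at 0.48 among others. PFKM, the muscle type, had a mean of 0.019. PFKP, the platelet type, had log2 ratios of -0.28 and -0.43 (mean -0.36 ± 0.11), from signals of 7903 and 6843 in ALDH+ cells and 9611 and 9246 in ALDH- cells. The second probe of PFKP gave -0.049 and -0.28 (mean -0.16), and with median centring the first gave -0.069. With the first PFKP probe, PFKL minus PFKP was 0.44 on array 1 and 0.67 on array 2. PFKL thus had the higher ratio of the pair in both dye orientations, though its signal was far below that of PFKP. PFKFB3 makes fructose 2,6-bisphosphate, the activator of phosphofructokinase-1. Its log2 ratios were -0.45 and -0.26 (mean -0.36 ± 0.13), and those of its relative PFKFB4 averaged 0.058.

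Apart from the phosphofructokinases, the enzymes from glucose 6-phosphate isomerase to lactate dehydrogenase ran from -0.13 to 0.15 by their brightest probes. TPI1, triose-phosphate isomerase, was the highest of them, with log2 ratios of 0.19 and 0.11 (mean 0.15 ± 0.060). GPI, GAPDH, PGAM1, ENO1 and PKM (named PKM2 on the array), which encode the isomerase, glyceraldehyde-3-phosphate dehydrogenase, phosphoglycerate mutase, enolase and pyruvate kinase, had means from 0.041 to 0.11. A second, dimmer PGAM1 probe gave 0.32 and 0.18 (mean 0.25). ENO2, ALDOA and PGK1, which encode neuronal enolase, aldolase A and phosphoglycerate kinase, had means from -0.091 to -0.040. ALDOC was not above background in either population. GAPDH was printed as 10 spots per array, and its log2 ratio was 0.19 ± 0.024 (SD of 10 spots) on array 1 and 0.030 ± 0.018 on array 2. Its spots agreed within an array more closely than the arrays did with each other. Transcripts of GAPDH, PGK1, PGAM1, ENO1 and LDHA have near-identical processed copies in the genome, and a hybridization probe cannot always tell them apart.

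LDHA and LDHB encode the subunits of lactate dehydrogenase that favor lactate and pyruvate, respectively. Their means were -0.13 and 0.12, and LDHB minus LDHA was 0.41 and 0.10, positive on both arrays. The second LDHB probe, dimmer than the first, gave 0.38 and 0.29 (mean 0.33), above the mean of PFKL. The second LDHA probe gave 0.15 and 0.074, of the opposite sign to the first. In the array files it lies on chr9:14921817-14921876 of hg19, minus strand, whereas RefSeq places LDHA on chromosome 11. Its sequence is shown because its mapped position lies outside that gene.
LDHA, probe on chromosome 9: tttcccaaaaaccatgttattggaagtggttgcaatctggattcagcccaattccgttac

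**Figure D3:**
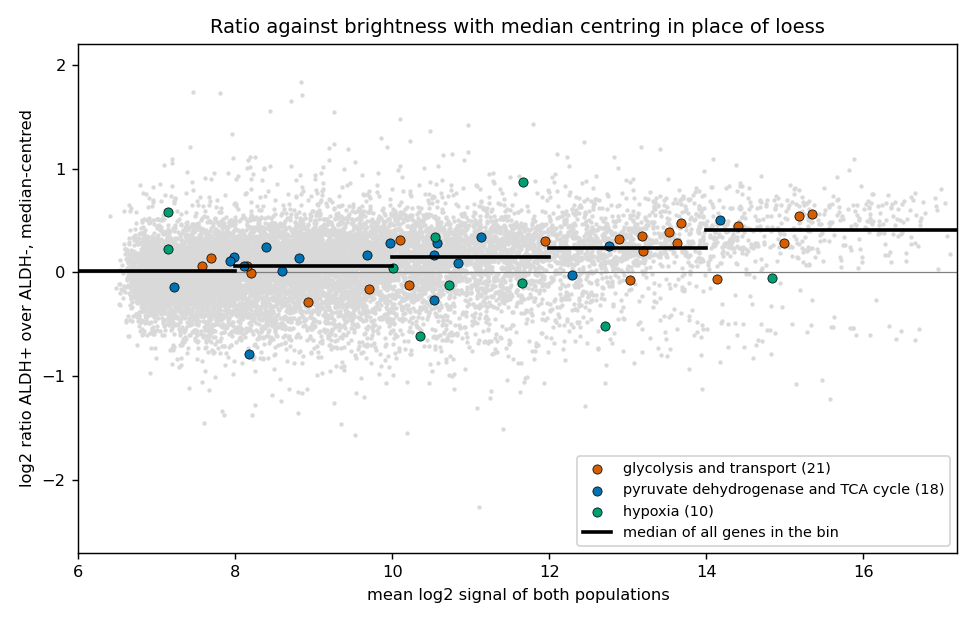
Log2 ratio of ALDH+ to ALDH- cells, as the mean of both arrays, each centred on the median of its gene spots (vertical axis). The horizontal axis is the mean log2 signal of both populations. Grey points are all genes measured, colored points the 49 members, and black bars the median of all genes per signal bin. The bars climb from 0.0096 below a log2 signal of 8 to 0.41 at 14 and over.

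The glycolysis median depended on how the arrays were normalized. Loess removes any trend of the ratio with brightness on each array, and median centring leaves it in. With median centring the glycolysis median was 0.28, the TCA median 0.14 and the hypoxia median -0.0056. These values are means over both arrays. The centre was taken over all gene spots, and the measured genes then had a median of 0.56 on array 1 and -0.44 on array 2. Median centring thus left an offset of opposite sign on each array, which only the mean over the arrays balances. The genes of the whole array had a trend of the same direction, as the plot of ratio against brightness shows. The cause of that trend was not tested. At a log2 signal of 14 and over, the median-centred ratio had a median of 0.41 over 456 genes and 0.45 over 7 members. From 12 to 14 these values were 0.24 over 1100 genes and 0.27 over 10 members. Members with a log2 signal above 12 that lay below 0 after loess came closer to 0 or passed it with median centring. NDRG1 was then at -0.52, and PFKP, SLC16A3, EPAS1 and PDHA1 were between -0.069 and -0.029. PGK1, CS, ALDOA and LDHA took the other sign, from 0.21 to 0.29.

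In the TCA group, PDK4 had the lowest ratio of ALDH+ to ALDH- cells. After loess, most cycle enzymes were near equal or slightly higher in ALDH+ cells. PDK4 encodes a kinase that inactivates pyruvate dehydrogenase and is known to be induced by fasting and fatty acids. Its normalized signal was 236 on array 1 and 199.9 on array 2 in ALDH+ cells, and 359.6 and 406 in ALDH- cells. The log2 ratios were -0.61 and -1.02, a mean of -0.82 ± 0.29 or 1.76-fold lower, and 1.69% of all genes measured lay lower. The array software's own log ratio put it at -1.10, past 2-fold. PDK1, the kinase best known as a HIF target, had log2 ratios of 0.10 and -0.19 (mean -0.044 ± 0.20), so its sign differed between the arrays. PDK2 had a mean of 0.068 and PDK3 of -0.21. The difference PDK2 minus PDK4 was 0.83 and 0.93, PDK1 minus PDK4 was 0.71 and 0.83, and PDK3 minus PDK4 was 0.27 and 0.93. PDK4 thus had the lowest ratio of the 4 kinases on each array.

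Of the pyruvate dehydrogenase complex, PDHA1, which encodes the catalytic subunit that the kinases phosphorylate, had log2 ratios of -0.090 and -0.44 (mean -0.26 ± 0.25). PDHB and DLAT, its partner subunit and the acetyltransferase, had means of 0.041 and 0.014 with opposite signs on the arrays.

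Of the cycle enzymes and their cytosolic counterparts, 11 of 12 were measured and 8 had a mean above 0. SUCLG2, a succinyl-CoA ligase subunit, was the highest after loess, by brightest probe, with log2 ratios of 0.018 and 0.37 (mean 0.19 ± 0.25). MDH2, mitochondrial malate dehydrogenase, had 0.25 and 0.12 (mean 0.18 ± 0.090). A second, dimmer probe of MDH1 gave 0.14 and 0.34 (mean 0.24), above the mean of SUCLG2. With median centring SUCLG2 was at 0.25, below MDH1 at 0.50 and MDH2 at 0.34 among others. The isocitrate dehydrogenases went apart. IDH2, the mitochondrial NADP enzyme, had log2 ratios of 0.17 and 0.18 (mean 0.18 ± 0.010). IDH1, its cytosolic counterpart, had -0.34 and -0.46 (mean -0.40 ± 0.081), from signals of 1376 and 1209 in ALDH+ cells and 1742 and 1658 in ALDH- cells. IDH2 minus IDH1 was 0.51 and 0.64, above 0.5 on both arrays. Among 17 pairs of members with like functions, 3 differed by more than 0.5 on both arrays, and the others were PDK1 and PDK2, each against PDK4. The pairs were drawn up after the values were seen.

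The remaining enzymes lay between -0.052 and 0.14 by their brightest probes. They were SUCLG1 and SUCLA2 (succinyl-CoA ligase), MDH1 (cytosolic malate dehydrogenase), IDH3A (a subunit of the NAD-linked isocitrate dehydrogenase), ACO1 (cytosolic aconitase), CS (citrate synthase) and FH (fumarase). CS, which begins the cycle, was the nearest to 0, at -0.016 ± 0.016. SUCLA2 had log2 ratios of 0.36 and -0.20, each with an SD of about 0.11 over its spots, so its arrays differed by more than its spots did. OGDH, of the oxoglutarate dehydrogenase complex, was not measured.

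**Figure D4:**
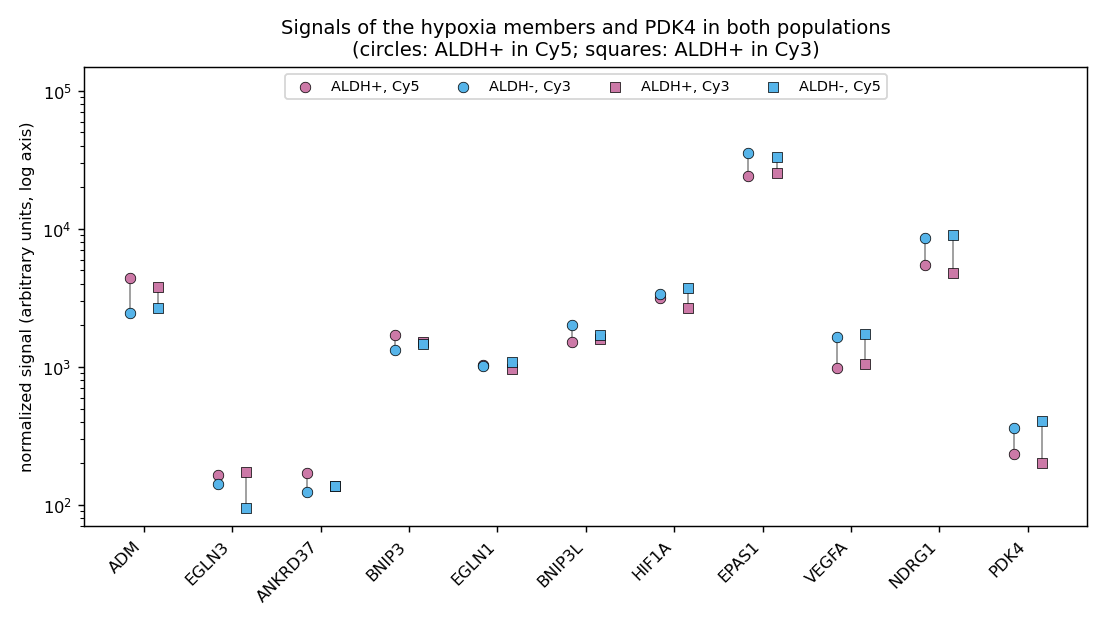
Normalized signal of the 10 measured hypoxia members and PDK4 in ALDH+ cells (pink) and ALDH- cells (blue), on a log axis in arbitrary units. Circles are array 1 and squares array 2, and a line joins the populations of each array. ADM is higher in ALDH+ cells on both arrays, whereas VEGFA, NDRG1, PDK4 and EPAS1 are lower on both.

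Targets of HIF did not share a direction. ADM was higher in ALDH+ cells, NDRG1 and VEGFA were lower, and BNIP3, BNIP3L and ANKRD37 lay between. ADM encodes adrenomedullin, a vasodilator peptide. Its normalized signal was 4435 and 3798 in ALDH+ cells and 2451 and 2677 in ALDH- cells. The log2 ratios were 0.86 and 0.50, with SDs of 0.049 and 0.059 over 10 spots. Their mean of 0.68 ± 0.25 is 1.60-fold, and 99.1% of all genes measured lay lower.

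NDRG1, a stress-induced gene tied to differentiation and growth arrest, had signals of 5444 and 4814 in ALDH+ cells and 8622 and 9001 in ALDH- cells. The log2 ratios were -0.66 and -0.90, a mean of -0.78 ± 0.17 or 1.72-fold lower. With median centring the mean was -0.52, short of 1.5-fold. NDRG1 was lower in ALDH+ cells in every processing tried.

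VEGFA encodes the main growth factor of blood vessels. Its signal was 976 and 1055 in ALDH+ cells and 1645 and 1727 in ALDH- cells. The log2 ratios of -0.75 and -0.71 (mean -0.73 ± 0.030, 1.66-fold lower) were the closest between arrays of the 4 members past 1.5-fold. This value came from the brighter of its 2 probes, which lies on the plus strand and spans chr6:43746223-43746634 of hg19, 412 bases, more than its own 60.
VEGFA, brighter probe: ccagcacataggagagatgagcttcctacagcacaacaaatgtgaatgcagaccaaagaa
The second probe, farther along the gene at chr6:43753511-43753570, gave -0.36 and -0.21 (mean -0.28). Both probes were lower in ALDH+ cells on both arrays, and the mean over the probes was -0.51, short of 1.5-fold.

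BNIP3 and BNIP3L encode related mitophagy receptors. BNIP3 had a mean of 0.21 and BNIP3L of -0.26, and BNIP3 minus BNIP3L was 0.77 and 0.16. ANKRD37, a small ankyrin-repeat gene, had log2 ratios of 0.45 and 0.00094 (mean 0.23 ± 0.32), so its ratio rested on array 1. CA9, carbonic anhydrase IX and a classic marker of hypoxia, was not above background in either population on either array. CA12 was above background in ALDH+ cells on array 1 only, and was not measured.

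The oxygen-sensing genes also differed in direction. EPAS1 encodes HIF-2 alpha. Its signal was 24192 and 25520.3 in ALDH+ cells and 35396 and 33097 in ALDH- cells. The log2 ratios were -0.55 and -0.38, a mean of -0.46 ± 0.12, 1.38-fold lower. With median centring the EPAS1 mean was -0.054. HIF1A encodes HIF-1 alpha, which is controlled mostly through protein stability. Its signal was 3169.6 and 2659 in ALDH+ cells and 3376 and 3753 in ALDH- cells. The log2 ratios were -0.091 and -0.50 (mean -0.29 ± 0.29), and with median centring the HIF1A mean was -0.10. Over the 10 spots of this probe the SD was 0.046 on array 1 and 0.044 on array 2, far below the gap between the arrays. A second HIF1A probe, at chr14:62211472-62211531 of hg19, plus strand, gave the opposite order of the arrays, -0.69 and -0.34 (mean -0.51).
HIF1A, second probe: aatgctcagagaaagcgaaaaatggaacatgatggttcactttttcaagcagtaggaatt
Both probes were below 0 on both arrays, with a gap of 0.22 between their means. Of the prolyl hydroxylases, EGLN1 (PHD2), the main oxygen sensor, had log2 ratios of 0.041 and -0.17 (mean -0.064 ± 0.15). EGLN3 (PHD3), itself a HIF target, had 0.22 and 0.87 (mean 0.55 ± 0.46, 1.46-fold). EGLN3 was dim, with signals of 166 and 174 in ALDH+ cells and 142 and 95.4 in ALDH- cells, and its value moved most with the processing. The array software put it at 1.19, past 2-fold, and normexp with an offset of 10 at 0.78.

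**Figure D5:**
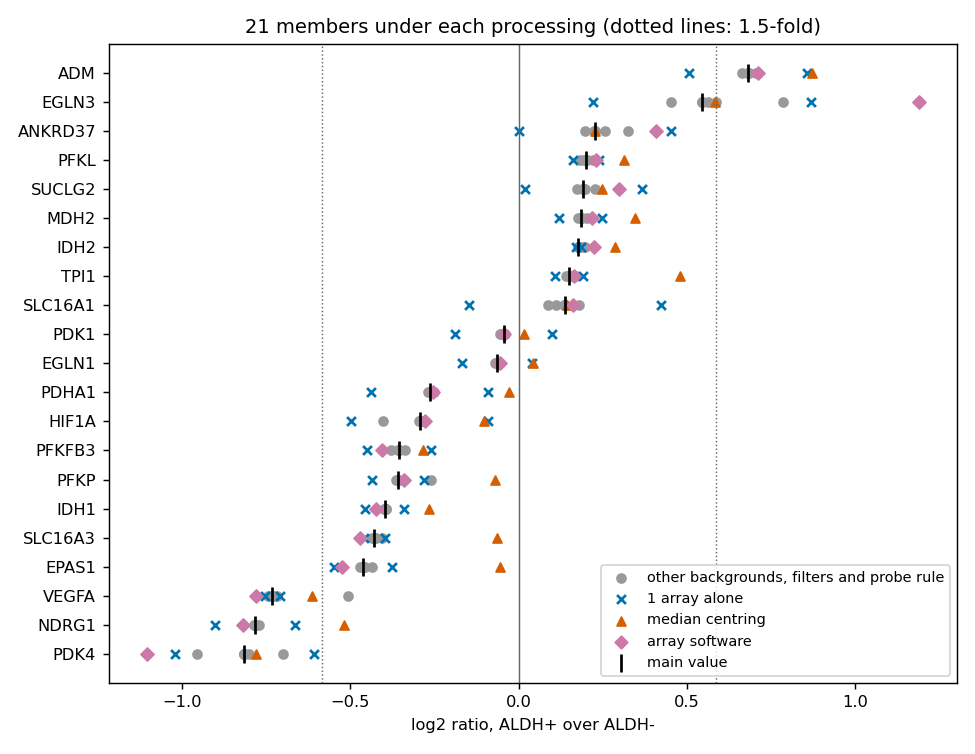
Log2 ratio of ALDH+ to ALDH- cells for 21 members under the main processing (black ticks) and each alternative (symbols as in the legend). Dotted lines mark 1.5-fold. EGLN3 ranges from 0.22 to 1.19, whereas NDRG1, VEGFA and PDK4 stay below -0.5 in every processing shown.

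Upstream sequence was set beside these ratios because HIF binds at ACGTG or GCGTG. The 250 bases before each RefSeq start (GRCh38.p14) were searched for ACGTG and for GCGTG on both strands. A palindromic CACGTG counts on both strands. ACGTG was found in 18.5% and GCGTG in 32.2% of the 35116 windows of all genes. The table held 48 of the 54 members, without SLC2A3, SLC16A1, OGDH, VEGFA, NDRG1 and BNIP3L. ACGTG lay in at least 1 window of 23 of the 48 members (47.9%), 13 of 21 glycolysis genes, 6 of 18 TCA genes and 4 of 9 hypoxia genes, against 21.7% of all genes in the table and 28.9% of its 8258 measured genes. GCGTG lay in 28 of the 48 members (58.3%), against 36.2% of all genes in the table and 53.3% of the measured ones. Genes with several starts had more sequence searched. The 21 measured members with ACGTG had a median log2 ratio of -0.044 and the 24 without it one of 0.076. In the hypoxia group the order was the other way, 0.21 for 3 genes with ACGTG and 0.13 for 4 without it. Over all genes these medians were -0.0012 and -0.012. The windows of PGK1 and ANKRD37, which hold ACGTG, and of ADM and PDK4, which do not and lie at the ends of the measured range, are shown with every ACGTG and GCGTG of either strand in capitals.
PGK1, chrX:78103998-78104247, plus strand, log2 ratio -0.091: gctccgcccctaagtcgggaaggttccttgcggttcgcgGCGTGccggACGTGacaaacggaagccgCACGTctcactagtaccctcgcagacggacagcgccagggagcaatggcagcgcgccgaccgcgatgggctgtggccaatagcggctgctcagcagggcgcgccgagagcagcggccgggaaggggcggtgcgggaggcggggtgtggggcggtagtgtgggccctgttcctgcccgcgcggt
ANKRD37, chr4:185396591-185396840, plus strand, log2 ratio 0.23: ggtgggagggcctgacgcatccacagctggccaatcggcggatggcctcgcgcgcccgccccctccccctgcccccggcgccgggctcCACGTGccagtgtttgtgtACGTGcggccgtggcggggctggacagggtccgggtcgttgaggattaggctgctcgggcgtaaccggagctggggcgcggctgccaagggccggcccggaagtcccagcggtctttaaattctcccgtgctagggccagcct
ADM, chr11:10304823-10305072, plus strand, log2 ratio 0.68: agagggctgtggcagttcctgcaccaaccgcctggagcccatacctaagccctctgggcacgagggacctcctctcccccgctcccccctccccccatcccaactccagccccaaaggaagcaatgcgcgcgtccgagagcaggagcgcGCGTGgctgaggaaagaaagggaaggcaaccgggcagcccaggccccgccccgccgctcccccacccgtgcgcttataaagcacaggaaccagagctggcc
PDK4, chr7:95596517-95596766, minus strand, log2 ratio -0.82: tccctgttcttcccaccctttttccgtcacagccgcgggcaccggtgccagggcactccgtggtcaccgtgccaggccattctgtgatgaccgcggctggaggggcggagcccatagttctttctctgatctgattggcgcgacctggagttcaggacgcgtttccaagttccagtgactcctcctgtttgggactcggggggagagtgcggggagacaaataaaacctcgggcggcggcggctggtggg
PGK1 held ACGTG at 2 places and GCGTG at 1. ANKRD37 held 3 matches of ACGTG, a pair of them from a single CACGTG. ADM held 1 GCGTG, and PDK4 held neither. The letters are a description of these windows only.

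Of 108 further genes listed for the pathways, 106 had a probe and 73 were measured, with a median log2 ratio of 0.021, 41 above 0 and 32 below. By pathway the medians were 0.060 for 17 glycolysis and transport genes, 0.0088 for 22 TCA genes and 0.0054 for 34 hypoxia genes. Of the 73, 1 was more than 1.5-fold higher and 2 more than 1.5-fold lower, beside 1.5% and 4.6% of all genes measured. EDN1, a HIF target that encodes the vasoconstrictor endothelin-1, had log2 ratios of 1.45 and 1.71 (mean 1.58, 2.99-fold). WSB1, a HIF target that encodes a ubiquitin ligase subunit, had -0.86 and -0.59 (mean -0.72). SLC2A6, a member of the glucose transporter family, had -0.40 and -0.79 (mean -0.60).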

How the data were processed

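Members, lists and alternatives were chosen with earlier results of these data known. The authors deposited, for each of the 2 arrays, spot intensities read with Agilent Feature Extraction, not normalized, together with background flags and that software's log10 ratios of Cy5 to Cy3, and a table that joins both arrays. The file headers name version 10.7.3.1 of the software, the submitters' processing notes 8.5.1.1. Probe coordinates are those of the files, on hg19.

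Mean spot intensities were corrected with normexp (offset 50) and normalized by loess within each array with limma 3.58.1 in R 4.3.3, with control spots at weight 0. Spots flagged as outliers (531 and 519) were left out and spots of a probe averaged. Log2 ratios were turned to ALDH+ over ALDH- and averaged over the arrays. For a gene with several measured probes the brightest was used. Ratios of dim probes are compressed by the offset. All members were named, and per-array values were given for those past 1.5-fold, the 3 highest and 3 lowest of each group and HIF1A, EPAS1, EGLN1, EGLN3 and PDK1. Others were named for their role or where values of like genes were compared. By the accessions in the array files, not by sequence or position, all 65 member probes matched a RefSeq gene, 1 under another symbol (PKM2). The steps were tested on simulated data. Precision is limited by the number of arrays, and differences between sorts cannot be estimated. A gene of the marker lists is not reported here.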

Additional observations from a re-analysis of the deposited data

How the results depend on the processing

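Other backgrounds, centrings, filters, probe rules, the software's ratio, the joined table and each array alone were tried. The background taken from negative control spots was chosen after seeing the data. When median centring replaced loess, the glycolysis median was 0.280 and the hypoxia median -0.0056. With no filter on background flags the hypoxia median was -0.067. With each array alone, the glycolysis median ranged from 0.0030 to 0.048, the TCA median from -0.052 to 0.11, with a change of sign, the hypoxia median from -0.14 to -0.025, and members past 2-fold from 0 to 1 (PDK4 on array 2). Members past 1.5-fold higher numbered 2, ADM and EGLN3, with offset 10, plain subtraction, the software's ratio and the joined table. Of all genes, 2.24% were past it with offset 10, 1.59% with plain subtraction and 4.09% with the software's ratio. Members past 2-fold numbered 2, EGLN3 and PDK4, with the software's ratio and the joined table. The share of all genes past 2-fold was taken in the main processing only. On array 2 alone, EGLN3 was past 1.5-fold higher and ADM, at 0.50, was not. NDRG1 with median centring (-0.52) and VEGFA with the mean over probes (-0.51) fell short of 1.5-fold. The median of all genes was 0.071 with median centring, which called 505 genes more than 1.5-fold higher and 406 lower, and the software's ratio called 560 and 1257. The joined table held the software's ratios and gave the same values. Of 252 values for the 21 named members, 19 moved by more than the array SD and 5 took the other sign. The 5 were of EGLN1 (0.043 and 0.041), PDK1 (0.016 and 0.10) and SLC16A1 (-0.15), none of them past 1.5-fold. The cause of these moves was not tested. Each array alone could not move a value past that SD, because the mean of 2 arrays lies closer to each than the SD. The background filters left every named value unchanged. For IDH2, with an array SD of 0.010, a shift from 0.18 to 0.19 already counted as a move. The count of 19 is therefore no measure of robustness. No paired analysis was possible because there was only 1 replicate, whose ratios already set both populations against each other on each array. EGLN3, a dim probe, ranged from 0.22 to 1.19 over the alternatives.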
